A study of Drosophila melanogaster with 15 samples.

Results

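The 6 genes described here, m (miniature), dyl (dusky-like), nyo (nyobe, CG1499), neo (neyo, CG7802), mey (morpheyus, CG12063) and tyn (trynity, listed as SP71), encode proteins with a zona pellucida (ZP) domain and were followed in wild-type and mutant Drosophila melanogaster embryos. They were found by symbol or public identifier in the table of genes that the study selected from its arrays, where m, nyo, neo, mey, tyn and dyl stand as CG9369-RA, CG1499-RA, CG7802-RA, CG12063-RA, CG17131-RB and CG15013-RB. All 6 were found, each with 1 probe set, among 134 genes of that table that could be named and 18769 probe sets of the array without its controls. Of a list of 14 ZP domain genes of the fly, these 6 are the ones with a named row, and the other 8 were not analysed here.

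The ZP domain is a protein module that lets proteins assemble into filaments outside the cell. In the embryonic epidermis such proteins build the apical extracellular matrix, the layer between the apical membrane and the forming cuticle, and they are known for shaping trichomes, the hairs and denticles of the larval cuticle. Different ZP domain proteins occupy different zones of a growing trichome. The transcription factor Shavenbaby (Svb) switches on the genes of trichome cells, and the small peptides encoded by pri turn Svb from a repressor into an activator.

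RNA came from whole embryos of 3 genotypes, 13 to 15 h after egg laying: wt, svb -/- (allele svbR9 in the study's methods) and pri -/- (allele pri1). The stocks were kept over GFP balancer chromosomes, with parents given in the labels as svb +/- or pri +/-, and mutant embryos were picked by hand by their GFP and are called homozygous there. Each genotype had 5 samples of 200 pooled embryos, described by the study as independent, with 1 Affymetrix array each. The sources used here give neither the wt strain nor the sex of the embryos, and in whole embryos fewer cells that express a gene cannot be told apart from less mRNA per cell.

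Signals are intensities on a linear scale, scaled to a trimmed mean of 100 on every array. Tests covered the 8631 probe sets whose mean reached a signal of 32 (5 in log2 units) in 1 or more of the 3 genotypes. All 6 ZP domain genes passed, with mean signals above 32 in each genotype. Changes are log2 fold changes of 1 limma fit over the 15 arrays, with p-values adjusted by Benjamini and Hochberg over all tested probe sets. On the first principal component of the arrays (57.3% of the variance) svb replicate 4 stood apart, at -86.9. The other svb arrays lay between -45.5 and -8.52. Test results without svb replicate 4 are given where they change a result, while correlations were not computed without it. Neither svb nor pri had a named row, so the labels could not be checked against the mutated genes themselves. The study chose its table on these same arrays for genes lower in both mutants, with a more than 2-fold difference between the mutants as a criterion, so the direction of these genes is not independent evidence.

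In svb mutants 4 of the 6 ZP domain genes were lower, by 1.79-fold to 2.10-fold. The fitted changes of dyl and tyn, 1.22-fold and 1.38-fold, did not pass. The study lists all 6, dyl and tyn included, among genes that depend on svb by in situ hybridization. It also reports that known Svb targets often fell only modestly in whole svb embryos. In pri mutants all 6 were lower, from 4.60-fold for tyn to 16.1-fold for m. Over all tested probe sets, 4.00% were called lower in svb mutants and 23.1% lower in pri mutants. The median change of the 6 genes was -0.84 on the log2 scale in svb and -2.68 in pri, beside medians of -0.01 and -0.04 over all tested probe sets.

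**Figure D1:**
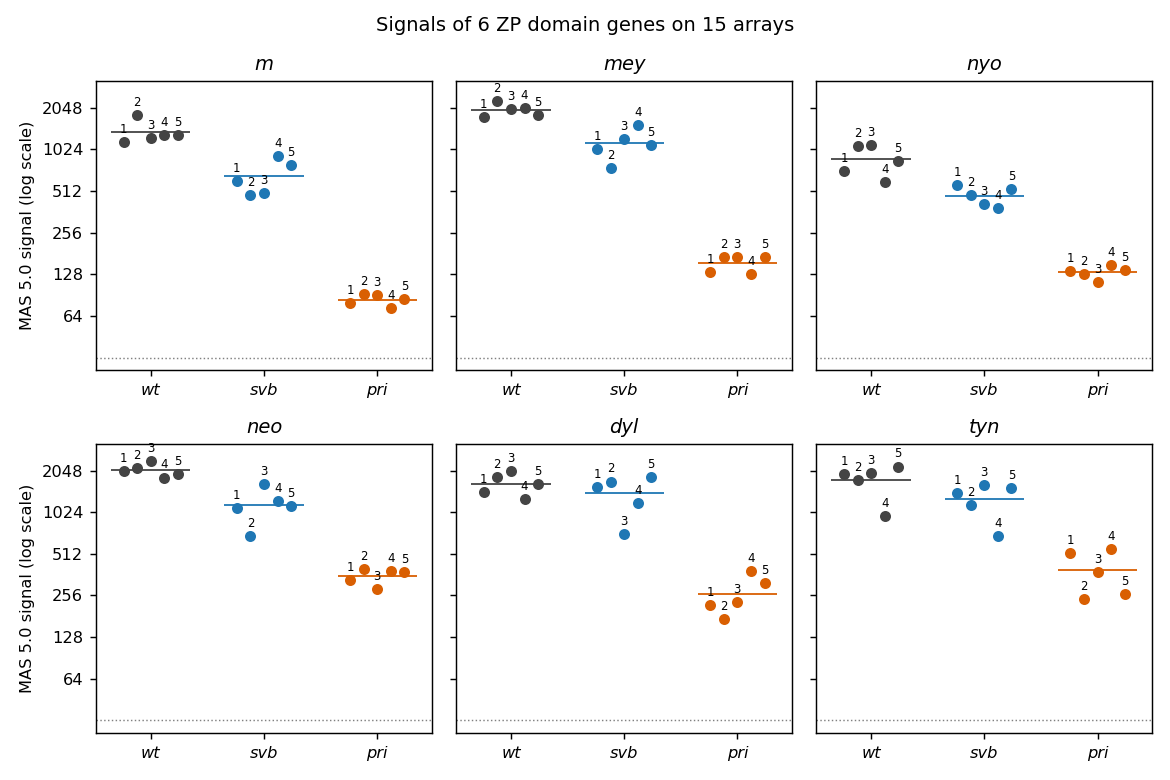
Signals of the 6 genes on the 15 arrays, on a log scale, with 1 point per array labelled by its replicate number and a line at the mean of each genotype; the dotted line is the filter level of 32. The pri arrays of every gene lie below all svb and wt arrays, while svb and wt arrays overlap only for dyl and tyn.

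The gene m, which is named for the small wings of its mutants and acts in the apical matrix of the epidermis, had wt signals of 1161, 1808, 1234, 1299 and 1297 on replicates 1 to 5. In svb mutants its signals were 611, 481, 498, 918 and 788, and in pri mutants 79.0, 91.7, 90.5, 73.01 and 85.4. The 3 genotypes did not overlap: the highest svb array, replicate 4, stayed below the lowest wt array, and the pri arrays lay far below both. The fall in svb mutants was 2.10-fold (95% interval 1.62 to 2.74, limma adjusted p = 0.00131), and without svb replicate 4 the log2 change went from -1.07 to -1.20. In pri mutants the fall was 16.1-fold (95% interval 12.3 to 20.9, limma adjusted p = 1.63e-10), the 14th largest among the 8631 tested probe sets.

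A similar order of genotypes was seen for mey, whose protein shapes part of the larval trichome. Its wt signals were 1767, 2283, 2023, 2028 and 1824, its svb signals 1039, 755, 1228, 1536 and 1104, and its pri signals 134, 172, 170.0, 129.5 and 171. Again no array of one genotype overlapped with another, and svb replicate 4 was the highest svb array, as it was for m. The mean signal went to 57.1% of wt in svb mutants, a 1.79-fold fall (95% interval 1.41 to 2.28, limma adjusted p = 0.00434), and to 7.82% in pri mutants, a 12.8-fold fall (95% interval 10.1 to 16.3, limma adjusted p = 1.63e-10).

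The nyo gene lies next to mey on chromosome arm 3R. The RefSeq gene table (Release 6) has 1 annotated gene between them, which is not protein-coding. For nyo, another gene of trichome shape, wt signals were 716, 1086, 1103, 599 and 849, and its svb signals 568, 481, 413, 388 and 530.3. The gap between those genotypes was narrow, since wt replicate 4 was only just above svb replicate 1. In pri mutants nyo stood at 136, 127.9, 114, 149 and 139, the tightest group of this gene. Its fall was 1.798-fold in svb (95% interval 1.40 to 2.32, limma adjusted p = 0.00577) and 6.39-fold in pri (4.96 to 8.24, limma adjusted p = 1.25e-08).

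For neo, a further ZP domain gene of the trichome set, wt signals were 2029, 2145, 2392, 1824 and 1926. The svb arrays scattered more, with 1096, 684, 1632, 1231 and 1144, and the pri arrays stood at 329.7, 398, 287, 387 and 381. No genotypes overlapped, although svb replicate 3 came close to wt and svb replicate 2 was the lowest. The SD of the log2 signal was 0.15 in wt, 0.45 in svb and 0.20 in pri. The fall was 1.84-fold in svb (95% interval 1.41 to 2.40, limma adjusted p = 0.00612) and 5.81-fold in pri (4.45 to 7.58, limma adjusted p = 4.05e-08).

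The dyl gene is a relative of dusky, a wing gene that neighbours m on the X chromosome, and is needed for the shape of hairs and bristles. It had wt signals of 1423, 1846, 2041, 1278 and 1629 and svb signals of 1552, 1706, 717, 1202 and 1828. These 2 groups overlapped widely, and 3 of the 5 svb arrays lay within the wt range, with replicate 3 far below it. In pri mutants the signals were 218, 174, 231, 383 and 315, all below the lowest svb array. The mean in svb was 85.3% of wt (1.22-fold lower, 95% interval 0.840 to 1.76, limma adjusted p = 0.639). Without svb replicate 3 the log2 change in svb went from -0.28 to -0.06 (limma adjusted p = 0.932). In pri mutants dyl fell 6.38-fold (95% interval 4.41 to 9.25, limma adjusted p = 1.06e-06).

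The tyn gene, known for its part in the epidermal barrier and the maturation of the respiratory tubes besides trichomes, had the widest relative spread of the 6 genes in wt and in pri (SD of 26.8% and 36.8% of the mean). Its wt signals were 1948, 1757, 1956, 963 and 2191, its svb signals 1405, 1162, 1621, 693 and 1541, and its pri signals 517, 242, 376, 558 and 261. Replicate 4 was far below the other arrays in both wt and svb, and in pri it was the highest array. The wt and svb groups overlapped through wt replicate 4 alone, since the other wt arrays lay above all svb arrays. The mean in svb was 72.9% of wt (1.38-fold lower, 95% interval 0.905 to 2.10, limma adjusted p = 0.439). The log2 change in svb was -0.67 without wt replicate 4 (limma adjusted p = 0.214) and -0.26 without svb replicate 4 (limma adjusted p = 0.637), against -0.46 with all arrays. In pri mutants tyn fell 4.60-fold (95% interval 3.02 to 7.01, limma adjusted p = 2.76e-05).

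Thus m, mey, nyo and neo passed in svb mutants (4 of 6) and also had all 5 svb arrays below all 5 wt arrays, which 4.06% of tested probe sets had. In pri mutants all 6 passed, and all 6 lay below wt in every array, as did 14.2% of tested probe sets. Ordered by the size of the fall among all tested probe sets, m was 283rd in svb and 14th in pri, mey 421st and 18th, nyo 417th and 52nd, neo 386th and 61st, tyn 981st and 94th, and dyl 1666th and 53rd. The contrasts share the wt arrays, and these ranks are a description. The counts of 4 and 6 also held without svb replicate 4.

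**Figure D2:**
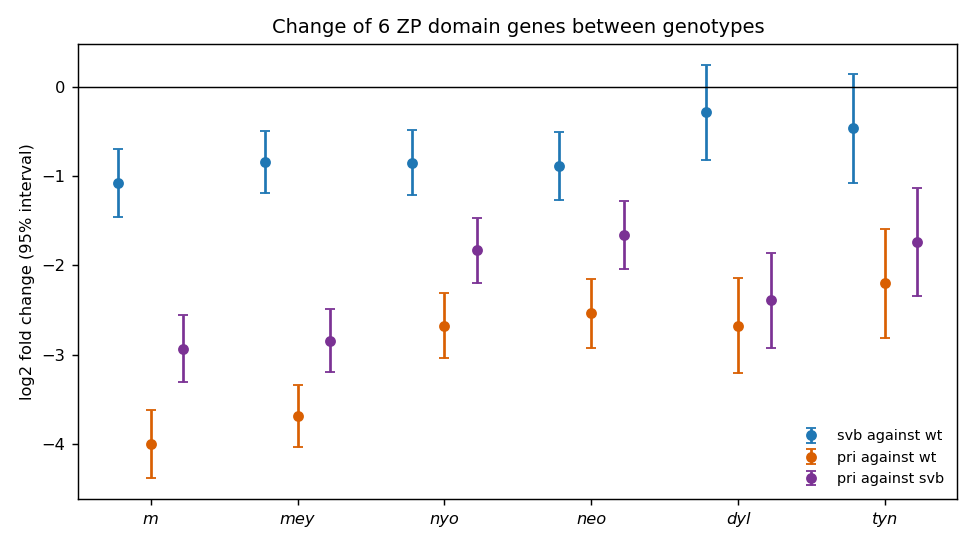
Log2 fold change of each gene for svb against wt, pri against wt and pri against svb, from the limma fit, with 95% intervals as bars. In svb against wt the intervals of dyl and tyn include 0, and in pri against wt those of m and mey lie below those of the other 4 genes, and none includes 0.

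Between both mutants, all 6 genes were lower in pri than in svb (limma, 24.7% of tested probe sets called lower), a contrast the study had used to choose them. The difference was 7.63-fold for m (95% interval 5.86 to 9.93, limma adjusted p = 6.47e-09) and 7.17-fold for mey (5.63 to 9.12, 3.47e-09). It was 5.24-fold for dyl (3.62 to 7.59, limma adjusted p = 2.56e-06), which had kept the most of its wt signal in svb mutants. For nyo, tyn and neo the differences were 3.56-fold, 3.33-fold and 3.15-fold, with adjusted p values of 7.41e-07, 0.000161 and 3.64e-06. No svb array overlapped with a pri array for any of the 6 genes, which 13.8% of tested probe sets shared in this direction. The closest approach was that of tyn, from 693 on svb replicate 4 to 558 on pri replicate 4.

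To ask whether one ZP domain gene fell further than another, the log2 ratio of each pair of genes was taken on every array and compared between genotypes by an exact permutation test over arrays (two-sided, adjusted over the 15 pairs of a comparison). Such a ratio is not changed by a single scaling factor per array. In pri mutants 9 of 15 pairs passed. All 8 pairs of m or mey with one of the other 4 genes were among them, and m also fell further than mey, by 0.32 on the log2 scale (95% interval of the difference -0.51 to -0.14). None of the 6 pairs among dyl, nyo, neo and tyn passed. The 9 pairs had the smallest p that 5 against 5 arrays can give (exact p = 0.00794, adjusted p = 0.0132), and for each the ratios of the pri arrays did not overlap with those of wt.

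The gap was largest between m and tyn, where m fell 3.49-fold further (log2 difference -1.80, SE 0.39). The neighbours mey and nyo also parted in pri mutants, where mey fell 2.01-fold further (log2 difference of nyo minus mey 1.01, 95% interval 0.53 to 1.49). By contrast dyl and nyo differed by 0.00 (95% interval -0.45 to 0.46), and nyo and neo by -0.14 (95% interval -0.47 to 0.19; exact permutation p = 0.325, adjusted p = 0.394). The intervals were wider for the pairs with tyn, where neo minus tyn lay between -1.15 and 0.47, so that differences within this group of 4 genes are bounded only loosely.

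In svb mutants no pair passed (0 of 15, exact permutation test, with 2 at an unadjusted p under 0.05, and 0 of 15 with limma on the ratios). The pairs with the lowest p were m with dyl, where m fell 1.73-fold further, and dyl with nyo, where nyo fell 1.48-fold further (each exact permutation p = 0.0397, adjusted p = 0.298). For mey and nyo, which had parted in pri mutants, the difference in svb was -0.01 for nyo minus mey, with a 95% interval of -0.69 to 0.68. Between pri and svb mutants 3 pairs passed, m with nyo, nyo with mey and neo with mey (each exact permutation p = 0.00794, adjusted p = 0.0397). This last count rests on few arrays. It was 6 without svb replicate 3 and 0 without any one of the other svb or the pri arrays, where 4 against 5 arrays allow no p below 0.0159.

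**Figure D3:**
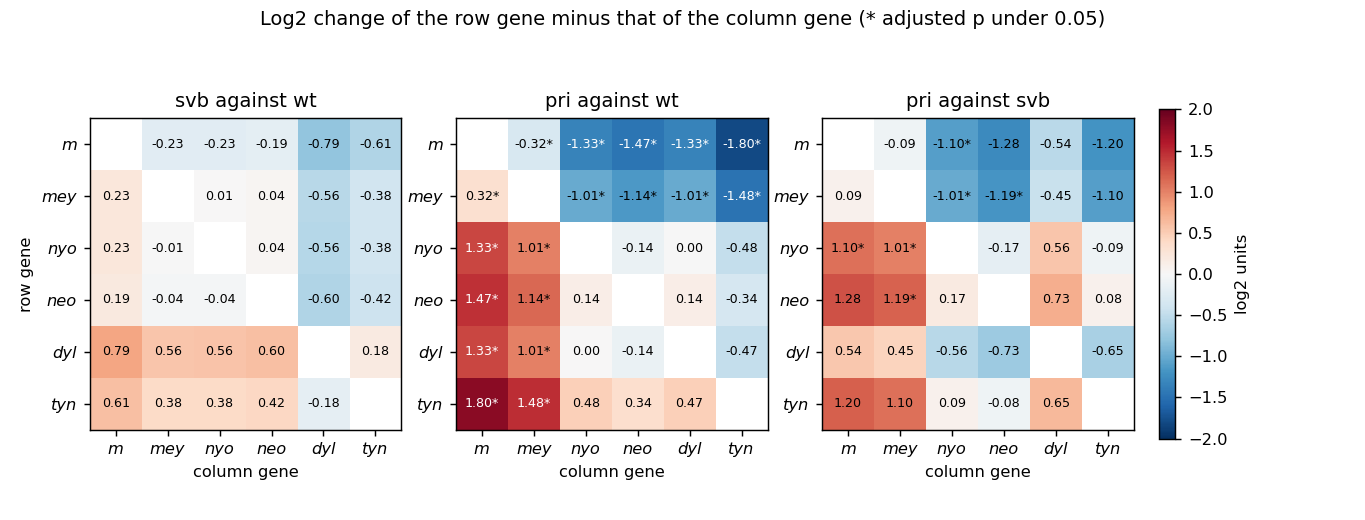
Log2 change of the row gene minus that of the column gene for each comparison of genotypes, with colour from -2 to 2 log2 units and an asterisk where the exact permutation test passed after adjustment over 15 pairs. In pri against wt the rows of m and mey are negative against the other 4 genes and each carries asterisks, while no asterisk stands among nyo, neo, dyl and tyn.

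The 6 genes did not vary as one among replicates of a genotype. After each genotype's mean was taken out, m and mey moved together over the 15 arrays (Pearson r = 0.73), as did dyl and nyo (r = 0.66), mey and neo (r = 0.596) and nyo and tyn (r = 0.502). Over the same arrays other pairs ran against each other, with r = -0.51 for mey and tyn, -0.42 for m and tyn and -0.38 for dyl and mey. The r of mey and tyn and of m and tyn can rest largely on svb replicate 4. There tyn deviated by -0.83 log2 units, mey by 0.48 and m by 0.52. These r were not computed without that array. Over the 15 pairs the median r was 0.0986, beside 0.016 over all pairs of tested probe sets, whose quartiles were -0.345 and 0.377. These correlations are a description over 15 arrays that share the array scaling. The sign did not always hold in each genotype. For dyl and mey r was 0.42 in wt, -0.52 in svb and -0.44 in pri. For mey and neo it was 0.32 in wt, 0.80 in svb and -0.08 in pri. The other pairs named here kept their sign over all arrays of a genotype, though r of m and tyn was only -0.05 in wt. In svb mutants the sign of the pairs with tyn can also rest on replicate 4, where nyo deviated by -0.28. Values of a single genotype rest on few arrays.

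Single arrays also show that the 6 genes did not vary as one. On svb replicate 4 the deviation from the svb mean was 0.52 for m and 0.48 for mey on the log2 scale but -0.83 for tyn and -0.28 for nyo. On svb replicate 3 neo stood at 0.55 and dyl at -0.89, and on svb replicate 2 neo stood at -0.70 and dyl at 0.36. On pri replicate 4 tyn and dyl were both up by 0.59, and m and mey were at -0.20 and -0.25. The deviations of m and mey moved with those of the arrays on the first principal component (r = -0.71 and -0.75), and that of tyn less so and in the other direction (r = 0.51). For neo, nyo and dyl the r was -0.36, 0.27 and 0.13. Much of these r can rest on svb replicate 4, which lay far from the other svb arrays on this component, at -86.9. They were not computed without it. The part of this component in the changes between genotypes was not tested.

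**Figure D4:**
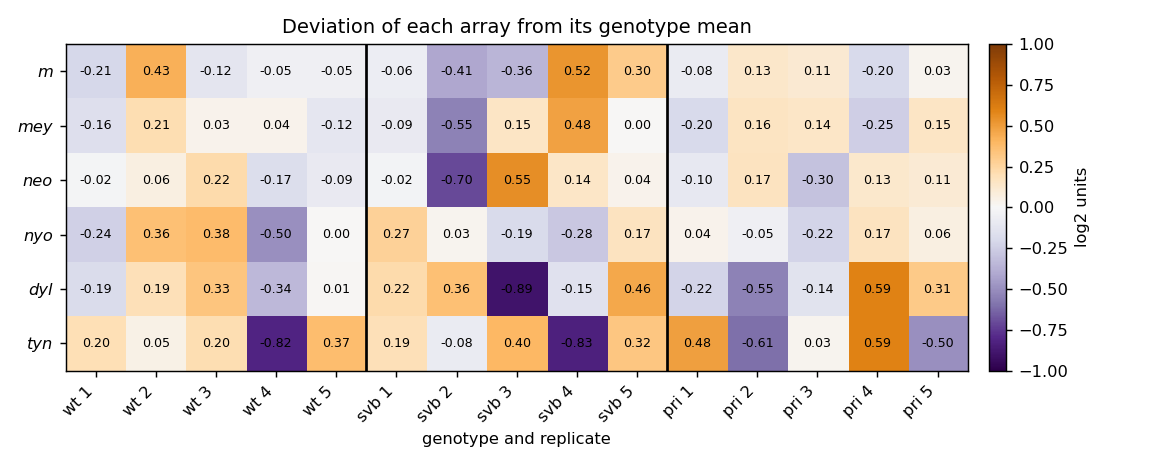
Deviation of each array's log2 signal from the mean of its genotype, with genes in rows and the 15 arrays in columns, in log2 units from -1 (dark purple) to 1 (dark orange). The strongest values are those of dyl on svb replicate 3 (-0.89) and of tyn on replicate 4 of wt (-0.82) and svb (-0.83).

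Among the other named genes of the table, those most like the mean profile of the 6 over all 15 arrays were dsx-c73A (r = 0.989, within genotypes 0.72), CG14395 (r = 0.984, within genotypes 0.33) and CG13698 (r = 0.984, within genotypes 0.77). No tested probe set outside the 6 genes was more like it than these 3. The r over all arrays comes mostly from the differences between genotypes, for which the table was chosen, and the within-genotype value shows how far replicates moved together. By the same measure, m was most like CG1632 (within genotypes r = 0.72), mey most like CG14756 (0.73), neo most like CG16798 (0.71) and nyo most like dsx-c73A (0.82).

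The closest companions within genotypes were those of dyl and tyn. For dyl this was CG13627 (r = 0.986, within genotypes 0.898), which fell 6.21-fold in pri mutants (limma adjusted p = 7.77e-06) and had mean signals of 403 in wt and 379.7 in svb. For tyn it was ImpE1, an ecdysone-inducible gene (r = 0.983, within genotypes 0.94). Like tyn, ImpE1 was low on replicate 4 of wt (565, against 1006 to 1281 on the other wt arrays) and of svb (376, against 832 to 1164). On pri arrays ImpE1 read 222, 69.1, 145, 237 and 87.8, with the high and low replicates in the places where tyn had them.

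The table also names other known Svb targets, chosen by the study on the same arrays. Of 10 such genes outside the ZP domain family, 4 passed as lower in svb mutants and all 10 in pri mutants and between pri and svb (limma). Over all tested probe sets the shares called lower were 4.00%, 23.1% and 24.7% in the same order. In svb mutants the largest falls were those of sha, whose product is needed for trichome growth (at least 3.74-fold, with its svb level under the filter level), and CG14395 (2.50-fold), and the smallest fitted falls, which did not pass, were those of CG4702 (1.06-fold, adjusted p = 0.800) and CG31559 (1.06-fold, adjusted p = 0.855). In pri mutants CG14395 and sha lay under the filter level, so that only bounds can be given, at least 3.88-fold and at least 3.74-fold, and these genes have no rank. Among the other 8 the smallest falls were those of PH4alphaEFB (prolyl hydroxylase, 2.49-fold) and f (forked, an actin bundler, 3.88-fold), and the largest those of dsx-c73A (7.94-fold) and ImpE1 (7.28-fold). Between pri and svb the smallest differences were those of PH4alphaEFB (2.21-fold) and mwh (2.31-fold), known for its part in wing hair number, and the largest measured in both mutants were those of CG31559 (6.62-fold) and ImpE1 (6.09-fold). CG14395 differed at least 1.55-fold and has no rank, and sha lay under the filter level in both. The median over the 10 genes was 1.59-fold in svb and 6.45-fold in pri (4.56-fold with genes at their bounds), beside 1.79-fold and 6.39-fold for the 6 ZP domain genes. Whether both lists differ was not tested.

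Markers of tissues could be followed only where the selected table names them, which holds for 5 of 17 genes. None of the 5 passed in svb mutants (limma adjusted p from 0.632 to 0.974). In pri mutants all 5 were lower, where 23.1% of tested probe sets were, but the study had selected these rows for being lower, so the count and its direction are no evidence of their own. They were the epidermal genes vri (3.21-fold), amd (2.73-fold) and Tb (at least 3.85-fold), PH4alphaSG1 of salivary glands (2.50-fold) and kar of midgut and pigment (2.29-fold). Of these, Tb is listed by the study as depending on Svb by in situ hybridization, so it is not a marker of tissue alone. Mean signals of these genes were 146 to 413 in wt, 129 to 354 in svb and 31.4 to 151 in pri, and markers of muscle, nerve cells and fat body were not analysed here. The part that the makeup of the embryos had in the changes of the ZP domain genes was not tested.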

How the data were processed

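Per the labels and the study's methods, the authors deposited intensities on a linear scale, which they computed with MAS 5.0 in Affymetrix Expression Console 1.1 and scaled to a trimmed mean of 100 per array. The scaling assumes equal total signal between genotypes. Detection calls, scan batches and the genome build behind the probe annotation were not given in the sources used here. The authors' table of 149 selected genes was joined to the 18952 probe sets through its signals on the 15 arrays, taken as equal within a relative tolerance of 1e-05, which matched 145 rows, and its symbols were updated through RefSeq. Rows with several symbols, with conflicting names or of a probe set already named were left out, and 183 control probe sets were not tested. Of the 18769 others, 10138 fell under the filter. The suffix of the dyl and nyo probe sets marks probes that match several transcripts, and overlap between genes was not tested.

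Log2 signals without an offset were fitted with limma 3.58.1 in R 4.3.3 (3 group means over all arrays, eBayes with a trend, threshold 0.05). Simulated signals with known changes were used to check the fit. Pair ratios were compared by exact permutation tests (scipy 1.17.1), with intervals for unequal variances. The number of arrays limits the precision. Named are all 6 ZP domain genes, the genes most like them by correlation, and of the list of other Svb targets the 2 largest and 2 smallest falls per comparison. ImpE1 and dsx-c73A were named there after their values were seen, in place of genes with only a bound. The members, gene lists (ZP domain, other Svb targets, tissue markers) and tests were chosen with earlier results of these data known. Alternatives were other scalings, an offset of 16, other filters and variance models, array weights, a replicate block, only the 10 arrays compared, and leaving out each array.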

Additional observations from a re-analysis of the deposited data

Results flagged for a closer look

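In 2 of 18 groups of 5 arrays (6 genes in 3 genotypes) 1 array stood far from the others on the log2 scale by Dixon's test at the 95% level, which chance gives in about 1 of 20 groups. The signal of m on wt replicate 2 was 1808, against 1161 to 1299 on the other wt arrays, and without this array the fall of m in svb mutants was 0.97 on the log2 scale instead of 1.07 (limma adjusted p = 0.00507). The signal of tyn on wt replicate 4 was 963, against 1757 to 2191, and without it tyn still did not pass in svb mutants (limma adjusted p = 0.214).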

How the results depend on the processing

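The counts of ZP domain genes that fell were 4 in svb, 6 in pri and 6 between pri and svb under each of 25 settings, leaving out each array in turn included, and none of the 432 refitted changes of single genes reversed or crossed the threshold. With the replicate block the counts were again 4, 6 and 6, and adjusted p in svb lay between 0.00641 for m and 0.0204 for neo among the 4 genes that passed, with 0.687 for dyl and 0.460 for tyn. Replicate numbers gave no clear pairing of the arrays: same-numbered arrays of different genotypes correlated between -0.61 and 0.37, and 5 of 15 correlated best with their own number. Whether some arrays of the same number shared a batch cannot be told from these values. In svb mutants adjusted p over the alternatives was at most 0.00889 for m, 0.0175 for mey, 0.0245 for neo and 0.0266 for nyo, and at least 0.507 for dyl and 0.214 for tyn. The number of gene pairs whose change differed in pri against wt was 8 with limma on the ratios and 9 to 10 without single arrays, and in svb against wt it was 0 throughout. Between pri and svb it was 5 with quantile normalisation, 6 with limma on the ratios and 0 to 6 without single arrays. Where it was 0, 4 arrays stood against 5, and 3 pairs at the smallest p of 0.0159 cannot pass after adjustment. At the same array numbers 6 pairs passed without svb replicate 3, so the 0 also depends on how many pairs reach that p. The cause of these shifts was not tested.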
